A study of Homo sapiens with 6 samples.

Results

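Mitochondrial ribosomal protein genes are the nuclear genes whose symbols begin with MRPL (large subunit) or MRPS (small subunit) followed by a number. They were chosen by symbol alone from the all-gene expression table, which held 69 of them among 12659 rows: 44 MRPL genes and 25 MRPS genes. Polyadenylated RNA was measured in a pair of human lung cancer cell lines: NCI-H1650, an established adenocarcinoma line labelled pre-LUAD, and NCI-H1650Re, labelled post-SCLC, that is, after transformation to small cell lung cancer. Each line had 3 libraries, and the comparison asked which genes differ between the 2 states. The labels name no treatment and do not state whether NCI-H1650Re is a clone or a pool. Nor do they tie the replicates to separate cultures, so each p-value reflects the spread among these libraries, which may be only technical.

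Mitochondria carry their own ribosome, which translates the few mRNAs encoded by mitochondrial DNA into core subunits of the respiratory chain and ATP synthase. Its rRNAs come from mitochondrial DNA, but each of its proteins is encoded in the nucleus, made in the cytosol, imported and assembled around the rRNA. Part of the proteins descend from bacterial ribosomal proteins and part exist only in mitochondria. Symbols do not always follow position: MRPS18A and MRPS30 carry small subunit names but their proteins sit in the large subunit, and the protein once named MRPS36 is now called KGD4 and counted with the 2-oxoglutarate dehydrogenase complex. RefSeq lists 77 MRPL and MRPS symbols, of which 9 (MRPL12, MRPL27, MRPL33, MRPL38, MRPL53, MRPS6, MRPS17, MRPS24 and MRPS28) were not analysed here.

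Estimated depth was 17 to 22.3 M fragments for NCI-H1650 and 18.1 to 21.6 M for NCI-H1650Re. Replicate 3 stood somewhat apart in both lines. Pearson's r of log2 values over 11764 tested genes was 0.997 between replicates 1 and 2 of NCI-H1650 but 0.988 and 0.990 with replicate 3, and 0.994 between replicates 1 and 2 of NCI-H1650Re but 0.980 and 0.988 with replicate 3. The counts of members and of all tested genes past the threshold are therefore also given without these libraries. Directions, overlaps, subunit sums and the counts in other gene lists are given with all 6 libraries only. Of 9 lung epithelial markers, 5 had values (CDH1, EPCAM, KRT7, KRT8 and KRT18), with a summed level of 2812 to 3744 FPKM in NCI-H1650 and 2925 to 2989 in NCI-H1650Re. Within that sum CDH1 (log2 change -0.82), EPCAM (-0.50) and KRT8 (-0.46) fell (limma adjusted p = 0.00234, 0.00812 and 0.0214), while KRT7 (0.35, adjusted p = 0.0563) and KRT18 (0.13, 0.501) did not pass. The neuroendocrine markers CHGA and SYP had sums of 1.26 to 2.64 FPKM in NCI-H1650 and 4.01 to 6.93 in NCI-H1650Re, and other neuroendocrine markers were not analysed here. The fibroblast genes COL1A1 and COL3A1 summed to 10.1 to 13 FPKM and 23 to 40.1 FPKM, and 5 immune and 3 endothelial markers had no value to analyse. The part of these markers in the results below was not tested.

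The promoters of 61 of the 69 genes were found in the RefSeq promoter table (GRCh38.p14), as windows of 250 bases before to 50 bases after the transcription start. These windows were searched on both strands for short forms of 3 motifs long associated with nuclear genes for mitochondrial proteins: CCGGAAG for ETS factors such as GABPA, ATGGCGG for YY1 and GCATGCG for NRF1. The stretches below are examples from genes named in the results, with the matches in capitals. Each holds a match, whereas 18 of the 61 genes held none of the 3 motifs. MRPS34, MRPS10 and MRPS18A did not pass the threshold between the lines, and most of the genes that did are not shown. CTTCCGG is the ETS motif and CCGCCAT the YY1 motif read on the other strand.
MRPL52, chr14:22829687-22829896, plus strand: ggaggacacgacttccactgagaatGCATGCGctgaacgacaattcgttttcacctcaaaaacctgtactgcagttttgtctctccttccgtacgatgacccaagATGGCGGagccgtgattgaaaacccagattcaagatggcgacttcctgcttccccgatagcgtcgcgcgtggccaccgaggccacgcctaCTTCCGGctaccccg
MRPL48, chr11:73787794-73787883, plus strand: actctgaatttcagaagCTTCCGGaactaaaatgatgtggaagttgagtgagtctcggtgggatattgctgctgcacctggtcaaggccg
MRPS34, chr16:1773105-1773214, minus strand: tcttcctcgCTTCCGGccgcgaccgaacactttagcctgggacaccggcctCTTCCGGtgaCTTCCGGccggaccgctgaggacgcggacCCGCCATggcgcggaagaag
MRPS10, chr6:42217832-42217921, minus strand: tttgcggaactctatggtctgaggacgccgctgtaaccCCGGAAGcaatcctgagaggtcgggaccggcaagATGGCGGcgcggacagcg
MRPS18A, chr6:43687762-43687851, minus strand: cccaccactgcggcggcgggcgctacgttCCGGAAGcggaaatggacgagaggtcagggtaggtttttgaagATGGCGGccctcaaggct

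MRPL52, the large subunit gene with the largest rise, held a match to each of the 3 motifs. MRPL48 held a single ETS match, and MRPS34, the most abundant of the genes, held 3 ETS matches and 1 YY1 match. MRPS10 and MRPS18A had the same arrangement, an ETS match ahead of the start (first base at position -22 and -31, respectively) and a YY1 match after it (first base at position 13 in both). Their log2 changes between the lines were 0.44 and -0.25, and neither passed the threshold. ETS matches were found in 26 of the 61 genes (42.6%), against 22.7% of the coding genes tested here and 10.3% of all windows in the table. The last share counts single windows, and some genes have more than 1, so it is not on the same footing as the shares of genes. YY1 matches were found in 22 (36.1%, against 13.3% and 5.55%), and NRF1 matches in 7 (11.5%, against 7.48% and 3.91%). In 18 of the 22 genes with a YY1 match it lay after the start, between positions 11 and 39. In 17 of these it read ATGGCGG along the transcript, letters that can also spell a start codon and what follows it, so there the motif cannot be told apart from coding sequence. In the remaining gene, MRPS34, the match lay on the other strand. There its last letters and the next base also spell ATG along the transcript, so the same limit holds. ETS matches lay between positions -50 and 10 in 22 of 26 genes. A match describes letters in the window and not binding of a factor.

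Levels are given as FPKM, the number of fragments scaled by transcript length and library size, which corrects for transcript length and so allows genes to be set side by side. All 69 genes passed the filter on low values, 1 FPKM or more on average in NCI-H1650 or in NCI-H1650Re. The median of their mean levels was 25 FPKM, compared with 8.92 FPKM over all tested genes, 236 FPKM for 79 cytosolic ribosomal protein genes and 55.2 FPKM for 67 nuclear subunits of oxidative phosphorylation. The median was 23.4 FPKM in the large subunit and 29.9 FPKM in the small. The mRNA levels spanned 2.34 to 99 FPKM.

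The highest level belonged to MRPS34, a mitochondria-specific small subunit protein. Its FPKM was 98.62, 108.49 and 96.34 in NCI-H1650 and 103.6, 95.13 and 91.94 in NCI-H1650Re, and the lines overlapped. MRPS15, a counterpart of bacterial uS15, followed with 84.71, 82.75 and 76.43 FPKM against 89.44, 90.24 and 83.89. Next in the small subunit was MRPS12, the counterpart of the decoding-centre protein uS12, at 67.5 ± 1.99 FPKM (SD, n = 3) in NCI-H1650 and 73.5 ± 4.21 (n = 3) in NCI-H1650Re. In the large subunit the highest levels were those of MRPL51 (73.5 ± 7.77 and 85.6 ± 0.688 FPKM), MRPL37 (76.4 ± 4.62 and 81.8 ± 6.44) and MRPL3, the counterpart of bacterial uL3 (69.2 ± 2.8 and 72.8 ± 6.83), each with n = 3 per line. The levels of MRPL51 and MRPL37 did not differ from each other beyond their spread. Between the lines every NCI-H1650Re library of MRPL51 lay above every NCI-H1650 library (84.76 to 85.99 against 67.03 to 82.1 FPKM, log2 change 0.22, limma adjusted p = 0.08), and none of these 6 genes passed the threshold.

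The lowest levels were found for MRPL42, with 2.41, 2.18 and 1.81 FPKM in NCI-H1650 and 2.88, 2.48 and 2.26 in NCI-H1650Re, for MRPS31, with 3.25, 2.65 and 3.34 against 3.97, 3.96 and 3.4, and for MRPL50, with 6.63, 5.66 and 6.04 against 6.46, 5.9 and 5.23. Only MRPS31 had lines that did not overlap, and none of the 3 passed the threshold. GENCODE names 4 pseudogenes for MRPL42, 4 for MRPS31 and 3 for MRPL50. In all, 31 of the 69 genes have such copies (68 pseudogenes), and 26 share exon bases with another coding gene. No source used here tells how reads shared by such loci were assigned, so these levels are less certain.

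Between the lines the set moved little, and the genes that passed the threshold were all higher in NCI-H1650Re. Tested with limma on log2(FPKM + 1) at a Benjamini-Hochberg adjusted p under 0.05, 8 of 69 genes rose and 0 fell, a share of 11.6%. Over all tested genes 30.5% passed, with 16.6% higher and 13.9% lower. At an unadjusted limma p under 0.05, 20 were higher and 1, MRPL22, was lower (29% and 1.45%, against 24.1% and 19.2% of all tested genes), and the authors' deposited table lists 3 at an FDR under 0.05, none of them lower. The large subunit gave 5 of 44 (11.4%) and the small subunit 3 of 25 (12%). The number depended on single libraries: 17 genes passed without NCI-H1650Re replicate 3 (14 higher, 3 lower). With replicate 1, 2 or 3 of NCI-H1650 left out 6, 2 and 3 passed, and with NCI-H1650Re replicate 1 or 2 left out 4 and 2 passed. Without both replicate 3 libraries 16 passed (14 higher, 2 lower). The count over all tested genes moved as well, from 3587 of 11764 with all libraries. It was 4478 of 11767 without NCI-H1650Re replicate 3 and 5080 of 11767 without both replicate 3 libraries. With replicate 1, 2 or 3 of NCI-H1650 left out it was 2386, 1785 and 3160. With NCI-H1650Re replicate 1 or 2 left out it was 2923 and 1898.

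The direction was shared by most members. The log2 change (NCI-H1650Re minus NCI-H1650, on the log2(FPKM + 1) scale) was above 0 in 53 genes and below 0 in 16, that is 76.8% above 0 against 54.9% of all tested genes. Its median was 0.10 in the large subunit and 0.12 in the small, compared with 0.03 over all tested genes. With median-of-ratios scaling the medians were 0.08 and 0.09, and with quantile normalization 0.08 and 0.10. The changes were small in size: 58 of 69 (84.1%) were under 0.25 in absolute value against 60.1% of all tested genes, and the 95% interval lay within 1.5-fold either way for 66 of 69 (95.7%) against 70.6%. The extremes were 0.44 for MRPS10 and -0.25 for both MRPL22 and MRPS18A. In 21 genes every NCI-H1650Re library lay above every NCI-H1650 library, and in 0 every library lay below, 30.4% in all. Over all tested genes 47.2% did not overlap, 26.3% with NCI-H1650Re above and 21.0% with it below.

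**Figure D1:**
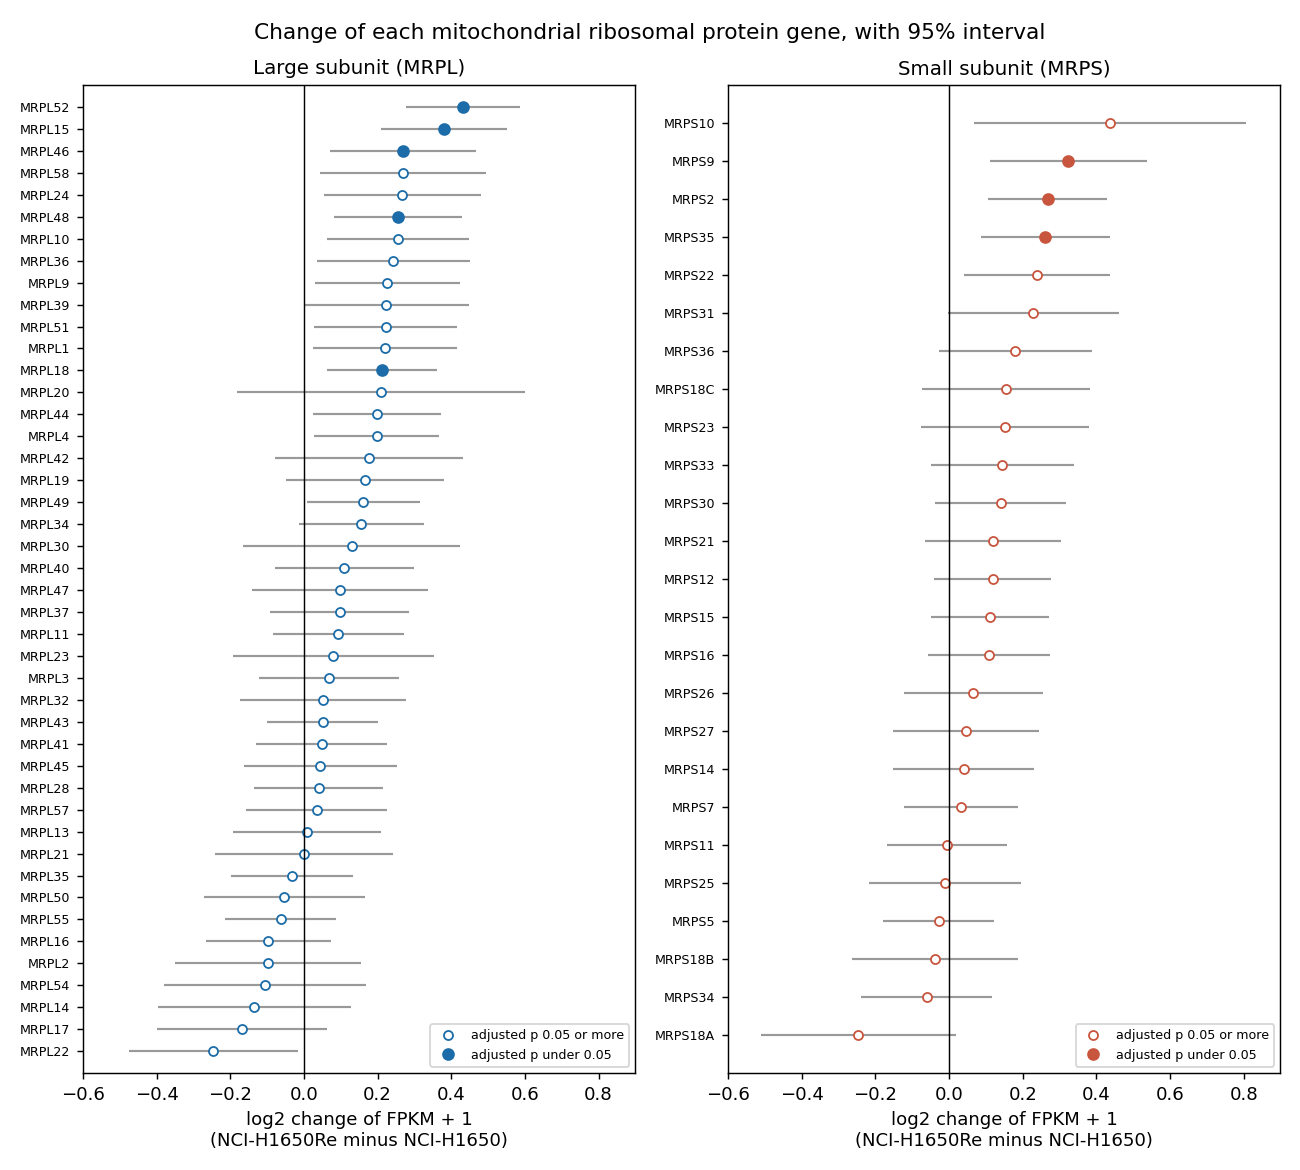
Log2 change of FPKM + 1 between the lines for each of the 69 genes, large subunit on the left and small subunit on the right; points are limma estimates from 3 libraries per line, bars are 95% intervals, and filled points have an adjusted p under 0.05. The 8 filled points all lie to the right of 0, and the spread of changes is alike in both panels, from -0.25 to 0.43 in the large and from -0.25 to 0.44 in the small subunit.

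Among the large subunit genes the clearest rise was that of MRPL52, which encodes a protein without a bacterial counterpart. Its FPKM was 14.96, 14.64 and 13.89 in NCI-H1650 and 19.5, 20.82 and 19.38 in NCI-H1650Re. All 3 NCI-H1650Re libraries were higher, with a log2 change of 0.43 (SE 0.07, limma adjusted p = 0.00344). MRPL15, on chromosome 8, encodes the counterpart of bacterial uL15. It was listed at 35.6, 31.06 and 31.9 FPKM in NCI-H1650 and at 43.86, 43.94 and 41.25 in NCI-H1650Re, again without overlap (log2 change 0.38, SE 0.07, limma adjusted p = 0.00815). MRPL52 and MRPL15 passed in each of the 16 fits tried, the only 2 genes of the set to do so. The authors' deposited table gives them FDR values of 0.0199 and 0.0118. No pseudogene or overlapping coding gene is annotated for MRPL52 in GENCODE, and 1 pseudogene is named for MRPL15.

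MRPL46 and MRPL48 encode mitochondria-specific proteins of the central protuberance, the knob of the large subunit that faces the small subunit. MRPL46 stood at 19.27, 19.46 and 16.57 FPKM in NCI-H1650 and at 23.14, 20.84 and 23.16 in NCI-H1650Re (log2 change 0.27, SE 0.09, limma adjusted p = 0.0475). MRPL48 stood at 7.04, 7.5 and 7.01 against 9.3, 8.9 and 8.14 (0.26, SE 0.08, adjusted p = 0.0364). MRPL18, the counterpart of bacterial uL18, had 50.1, 51.64 and 48.14 FPKM against 56.13, 60.5 and 57.5 (0.21, SE 0.06, adjusted p = 0.0406). None of the 3 overlapped between lines, but their calls were fragile. MRPL46 missed the limma threshold when any 1 library was left out (adjusted p 0.0728 to 0.11), and MRPL48 and MRPL18 passed only where NCI-H1650Re replicate 3 was the one left out (adjusted p = 0.0167 and 0.0462, against 0.0793 to 0.124 and 0.0528 to 0.166 otherwise). With median-of-ratios scaling MRPL46 and MRPL18 missed it as well (0.0633 and 0.0571). Both also missed it without a variance trend (limma adjusted p = 0.0572 and 0.0565) and without both replicate 3 libraries (0.116 and 0.067). MRPL46 missed it with quantile normalization too (0.0919). Of the 16 fits tried, MRPL46 passed in 5, MRPL18 in 7 and MRPL48 in 10. Reads over MRPL46 can also be shared with AC013489.1, annotated on the same strand.

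The start of MRPL46 lies 34 bp from that of MRPS11, which is transcribed the other way. MRPS11, the counterpart of bacterial uS11, was listed at 12.13, 13.01 and 11.83 FPKM in NCI-H1650 and 12.75, 11.69 and 12.36 in NCI-H1650Re. It changed by -0.01 on the log2 scale (95% interval -0.17 to 0.16, limma adjusted p = 0.957), with the lines overlapping. The difference between the changes of these 2 genes was not tested.

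Of the 3 small subunit genes that rose, MRPS9 and MRPS2 encode counterparts of bacterial uS9 and uS2, and MRPS35 encodes a mitochondria-specific protein. MRPS9 was nearly the same in every NCI-H1650 library (15.09, 15.11 and 15.1 FPKM) and spread in NCI-H1650Re (22.02, 18.27 and 17.47), for a log2 change of 0.32 (SE 0.09, limma adjusted p = 0.0322). MRPS2 had 33.1, 32.98 and 32.24 FPKM against 40.95, 41.52 and 36.74 (0.27, SE 0.07, adjusted p = 0.024). MRPS35 had 29.25, 25.49 and 26.71 FPKM against 33.71, 33.45 and 31.0 (0.26, SE 0.08, adjusted p = 0.0342). Each of the 3 was higher in every NCI-H1650Re library. MRPS2 shares exon bases with C9orf116 on the opposite strand. Their calls too rested on single libraries: with any library other than NCI-H1650Re replicate 3 left out, MRPS9 (limma adjusted p 0.0554 to 0.104) and MRPS2 (0.055 to 0.108) missed the threshold, and MRPS35 passed without NCI-H1650 replicate 1 (0.0369) but not without the other 4 (0.0745 to 0.144). Without NCI-H1650Re replicate 3 all 3 passed (0.0132, 0.00736 and 0.0217). With quantile normalization MRPS9 (limma adjusted p = 0.0502) and MRPS35 (0.055) missed it.

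**Figure D2:**
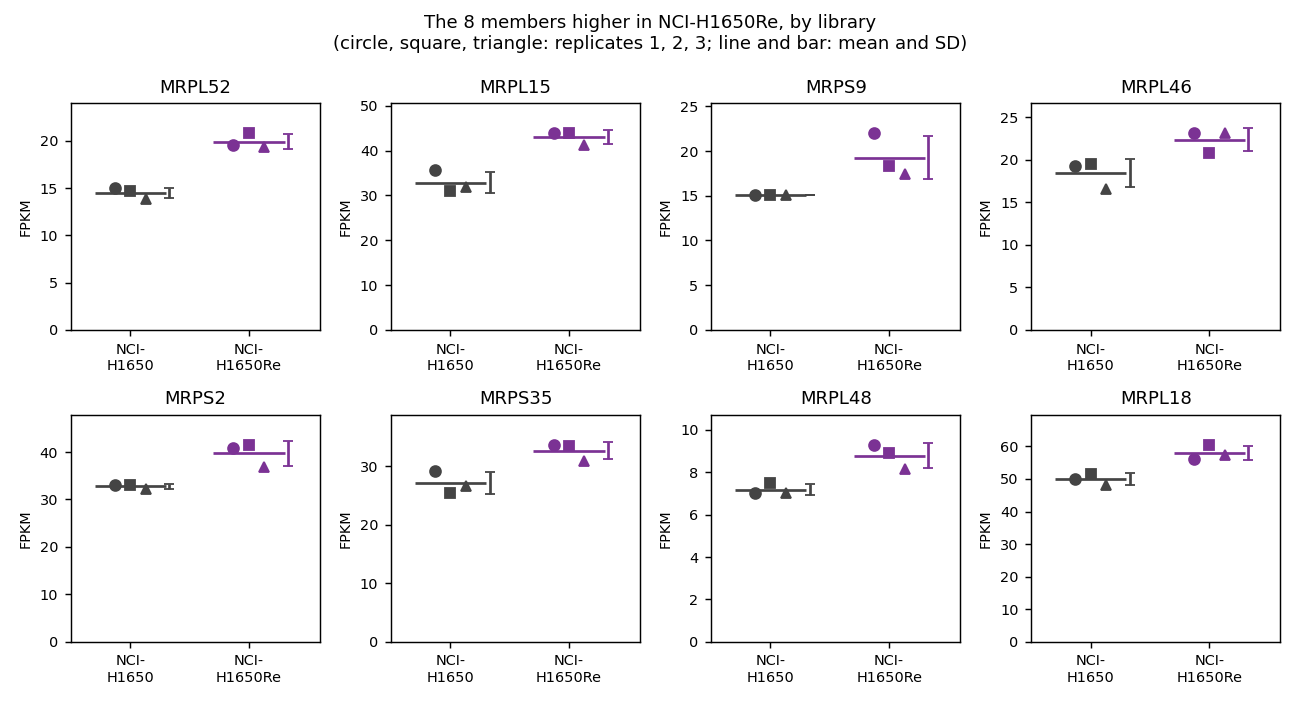
FPKM of the 8 genes with an adjusted p under 0.05, by library, with replicates 1, 2 and 3 as circle, square and triangle and the mean and SD of each line beside them; every axis starts at 0. In each panel the 3 NCI-H1650Re points lie above the 3 NCI-H1650 points, from 8.14 FPKM and up for MRPL48 to 56.13 FPKM and up for MRPL18.

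The difference from the rest of the set was one of degree. The median fold of the 8 genes on the FPKM + 1 scale was 1.2, and the folds of all 69 lay between 0.843 and 1.35. None of the 69 is among the 860 genes, out of 12659 rows, that the authors' deposited table marks as regulated. That table gives an FDR under 0.05 for MRPL15, MRPL52 and MRPS10 (log2 fold changes of 0.36, 0.43 and 0.44), against 27.9% of all its rows. The mark thus does not follow from the FDR alone, as 3526 rows have an FDR under 0.05. Its absence does not mean that a gene did not differ.

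Summed over members, the FPKM of both subunits was 1981 ± 61.5 in NCI-H1650 and 2143 ± 86.3 in NCI-H1650Re (SD, n = 3 each). The large subunit sum was 1289, 1236 and 1187 against 1409, 1352 and 1293, so that every NCI-H1650Re library lay above every NCI-H1650 library, if by little at the nearest pair. The small subunit sum was 753.9, 744.5 and 732.7 against 819.5, 791.9 and 762.4. The ratio of the large to the small sum was 1.71, 1.66 and 1.62 in NCI-H1650 and 1.72, 1.71 and 1.7 in NCI-H1650Re, and the lines overlapped. With MRPS18A and MRPS30 counted in the subunit that holds their proteins, the mean ratio was 1.94 ± 0.0428 in NCI-H1650 and 1.96 ± 0.0164 in NCI-H1650Re (SD, n = 3 each). MRPS30 itself was listed at 28.16, 27.17 and 31.06 FPKM in NCI-H1650 and 32.15, 33.35 and 29.94 in the derived line (log2 change 0.14, limma adjusted p = 0.202), with overlap. In bulk RNA, a change in the level per cell and a change in the share of cells that express a gene cannot be told apart.

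Within each line the members shared a small offset by library. Their median deviation from the line mean was 0.04, 0.00 and -0.04 on the log2 scale in replicates 1, 2 and 3 of NCI-H1650 and 0.06, 0.00 and -0.06 in those of NCI-H1650Re, whereas the median over all tested genes stayed between -0.016 and 0.012. Replicate 1 held the highest value of the line for 38 of 69 genes in NCI-H1650 and for 45 in NCI-H1650Re. The offset between the replicates is thus of the size of the median change between the lines.

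The members lie on 21 chromosomes, and 6 of them on chromosome 6. On that chromosome MRPS18A, MRPL2, MRPL14 and MRPS18B were each lower in NCI-H1650Re replicates 1 and 2 than in replicate 3. This order was not particular to them, as NCI-H1650Re replicate 3 held the highest value of the line for 7 members in all. These genes differed in size: replicate 3 exceeded the mean of replicates 1 and 2 by more than 0.3 on the log2 scale. MRPS18A, whose protein belongs to the large subunit, was listed at 42.72, 39.53 and 42.27 FPKM in NCI-H1650 and at 30.91, 32.57 and 41.95 in NCI-H1650Re. Replicates 1 and 2 of NCI-H1650Re thus lay below every NCI-H1650 library, while replicate 3 lay among them. MRPL14, the counterpart of bacterial uL14, had 30.2, 30.1 and 26.56 against 23.2, 25.04 and 31.06 FPKM. MRPL2, the counterpart of uL2 near the peptidyl transferase centre, had 15.27, 16.59 and 15.83 against 13.27, 13.73 and 17.7. MRPS18B, which lies further along the chromosome arm, had 32.74, 32.7 and 33.95 against 28.95, 31.02 and 37.38.

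None of the 4 passed with all libraries (limma adjusted p = 0.138 for MRPS18A, 0.393 for MRPL14 and 0.524 for MRPL2). Without NCI-H1650Re replicate 3, MRPS18A (log2 change -0.38, limma adjusted p = 0.00608), MRPL14 (-0.25, 0.0493) and MRPL2 (-0.22, 0.0471) fell. These genes were picked out because that library was high, so leaving it out lowers their change by construction. With any other single library left out, MRPS18A (limma adjusted p 0.21 to 0.348), MRPL14 (0.283 to 0.768) and MRPL2 (0.523 to 0.887) did not pass. Without both replicate 3 libraries MRPS18A (-0.36, 0.0076) and MRPL14 (-0.31, 0.0127) fell and MRPL2 did not pass (-0.22, 0.0514). These are the 3 lower genes in the count of 17 and the 2 in the count of 16 given above.

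**Figure D3:**
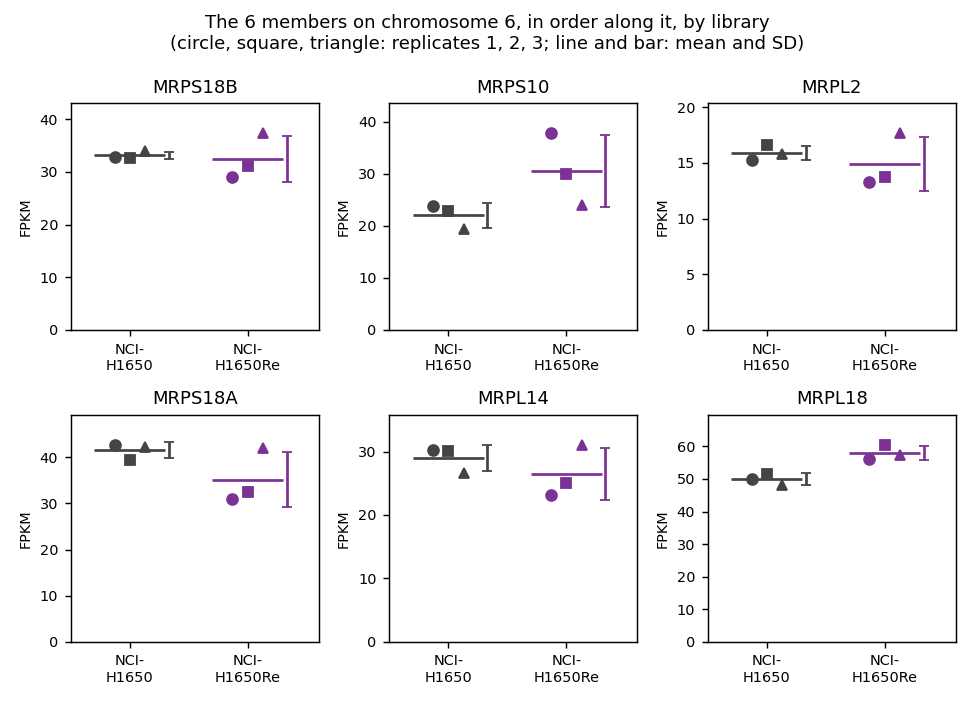
FPKM of the 6 members on chromosome 6, in order along it, by library, with replicates 1, 2 and 3 as circle, square and triangle and the mean and SD of each line; every axis starts at 0. In MRPS18B, MRPL2, MRPS18A and MRPL14 the NCI-H1650Re triangle is highest of its line, at 37.38, 17.7, 41.95 and 31.06 FPKM, whereas in MRPS10 it is lowest, at 23.94 FPKM.

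Genes beside these members moved with them. For each member the 12 nearest tested genes on either side were taken, and the median of their log2 levels was set against the NCI-H1650 mean. Around MRPS18A the median of 24 neighbours was -0.37 and -0.24 in NCI-H1650Re replicates 1 and 2 and -0.04 in replicate 3, next to -0.41, -0.34 and 0.02 for MRPS18A itself. Around MRPS18B it was -0.21, -0.20 and 0.06, next to -0.19, -0.09 and 0.17 for the gene. Replicate 3 exceeded the mean of replicates 1 and 2 by 0.39 for MRPS18A, 0.37 for MRPL2, 0.35 for MRPL14 and 0.31 for MRPS18B on the log2 scale, and by 0.33, 0.28, 0.33 and 0.32 for their neighbours. No other member exceeded 0.3. MRPL2, MRPS18A and MRPL14 share 8 of their neighbours, so their windows are not independent.

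MRPS10, the counterpart of bacterial uS10, lies 836 kb from MRPL2 with 14 tested genes between them and went the other way. Its FPKM was 23.83, 22.91 and 19.37 in NCI-H1650 and 37.88, 29.94 and 23.94 in NCI-H1650Re. The lines did not overlap, though only just, and the gene had the largest change of the set with a wide interval (log2 change 0.44, 95% interval 0.07 to 0.81, limma adjusted p = 0.0723). Without NCI-H1650Re replicate 3, where it was lowest of its line, it rose (0.60, limma adjusted p = 0.00866). With any other single library left out it did not pass (limma adjusted p 0.109 to 0.181). Its 24 neighbours had medians of 0.26, 0.12 and 0.09 in NCI-H1650Re replicates 1, 2 and 3, and 10 of them are also neighbours of MRPL2. The neighbours changed by 0.16 around MRPS10 and by -0.21 around MRPS18A between the lines. At the limma threshold 5 neighbours were higher and 1 lower around MRPS10, and 0 and 5 around MRPS18A. Around MRPL2, MRPL14 and MRPS18B 2, 0 and 1 were higher and 5, 7 and 2 lower. Over all tested genes 16.6% were higher and 13.9% lower.

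**Figure D4:**
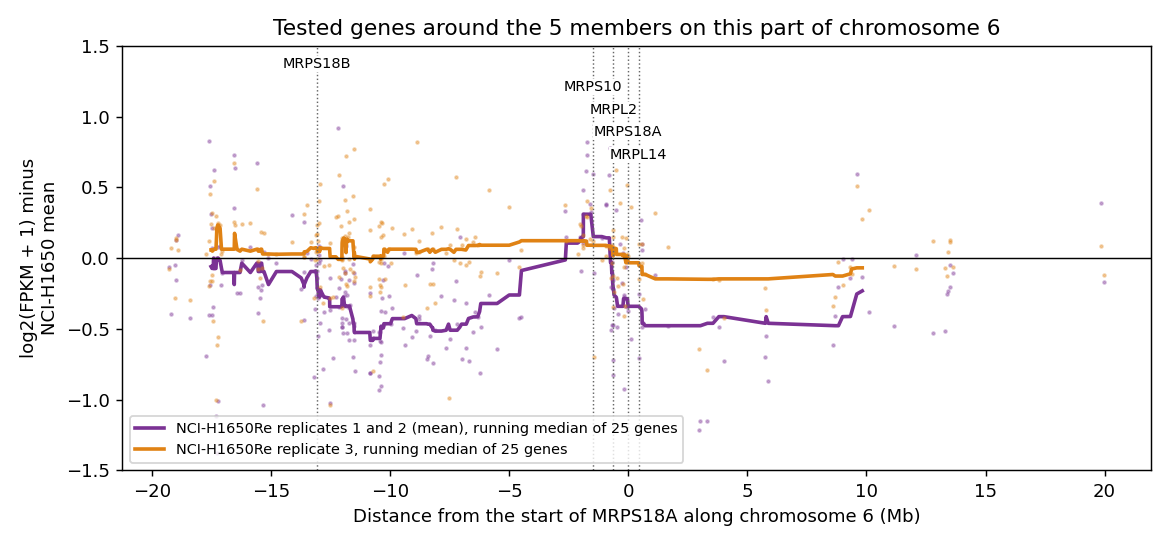
Tested genes within 20 Mb of MRPS18A on chromosome 6: distance from its start in Mb on the horizontal axis, log2(FPKM + 1) minus the NCI-H1650 mean on the vertical axis, for the mean of NCI-H1650Re replicates 1 and 2 and for replicate 3; points are genes, lines are running medians of 25 genes, dotted lines mark 5 members, and genes beyond 1.5 on the vertical axis are not drawn. The line for replicates 1 and 2 runs below that for replicate 3 at MRPS18B, MRPL2, MRPS18A and MRPL14 and above it at MRPS10.

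Outside chromosome 6, values of the neighbours were also set beside further members. MRPL22, on chromosome 5, encodes the counterpart of uL22, a protein that lines the exit tunnel. It had 9.33, 9.85 and 8.54 FPKM in NCI-H1650 and 8.65, 7.61 and 6.72 in NCI-H1650Re (log2 change -0.25, limma adjusted p = 0.0979), the lines overlapping, and it fell only without NCI-H1650Re replicate 1 (-0.33, 0.0444). The median change of its 24 neighbours was -0.23, with 10 of them lower and 0 higher at the limma threshold. Over all tested genes 13.9% were lower and 16.6% higher. MRPL20, on chromosome 1, had 30.3, 27.96 and 27.93 FPKM against 44.15, 32.4 and 25.92, with neighbour medians of 0.40, 0.19 and -0.03 in the 3 NCI-H1650Re libraries next to 0.60, 0.17 and -0.14 for the gene. In MRPL47 replicate 3 of NCI-H1650Re lay 0.31 below the mean of replicates 1 and 2, while the median of its neighbours differed by 0.01. By contrast, the neighbours of MRPL52 and MRPL15 had median changes of 0.00 each. Of 24 neighbours each, 4 were higher and 2 lower at the threshold around MRPL52, and 2 and 3 around MRPL15. Around MRPL20 these counts were 5 and 2. Across the 69 genes the difference of NCI-H1650Re replicate 3 from replicates 1 and 2 correlated with that of the neighbours at Pearson's r = 0.68, and at 0.32 over the 65 genes without these 4 genes of chromosome 6. For the change between the lines it was 0.34 over the 69 genes. The points share libraries and in part neighbours, so this is a description. DNA copy number was not measured here, and its part in these shifts was not tested.

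The other genes of mitochondrial translation were counted in the same fit, where 30.5% of all tested genes passed. Of the lists below, 20% of the ribosomal proteins with other symbols passed, 16% of the assembly genes and 13.3% of the translation factors. The share was 6.67% for mitochondrial transcription and RNA processing, 10% for mRNAs of mitochondrial DNA and 22.2% for the transcriptional regulators. Mitochondrial ribosomal proteins with other symbols numbered 5. Of these, DAP3, which encodes the GTP-binding small subunit protein mS29, rose from 31.14, 28.46 and 28.64 FPKM to 39.68, 39.99 and 35.11 (log2 change 0.37, limma adjusted p = 0.0109; 0.0574 and 0.056 with replicate 2 of NCI-H1650 or of NCI-H1650Re left out). The other 4 did not pass: AURKAIP1 (48.9 ± 2.34 and 58.8 ± 9.72 FPKM, SD, n = 3 each), GADD45GIP1 (58.8 ± 1.74 and 66 ± 1.2), PTCD3 (9.87 ± 0.393 and 10.5 ± 1) and CHCHD1 (18.3 ± 1.06 and 18.5 ± 2.27).

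Among 25 genes for assembly of the mitochondrial ribosome and maturation of its rRNAs, 2 rose and 2 fell. NDUFAB1, the mitochondrial acyl carrier protein, which also sits in an assembly module on the large subunit together with MALSU1, fell from 102.17, 98.79 and 97.72 FPKM to 53.84, 53.07 and 48.65 (log2 change -0.93, limma adjusted p = 0.000227). DDX28, an RNA helicase of large subunit assembly, fell from 11.1 ± 1.44 to 7.22 ± 0.997 FPKM (-0.56, adjusted p = 0.0109). Both are on chromosome 16, and their 24 neighbours each had a median change of -0.59. At the threshold 16 and 22 of them were lower and 1 and 0 higher, against 13.9% and 16.6% of all tested genes. MALSU1 rose from 30.1 ± 1.4 to 36.2 ± 1.22 FPKM (0.26, adjusted p = 0.0223). MTG2, a GTPase of large subunit assembly, rose from 15.1 ± 0.506 to 17.5 ± 0.159 FPKM (0.20, adjusted p = 0.0425), and with any library other than NCI-H1650 replicate 3 left out it missed the limma threshold (0.0566 to 0.161). MALSU1 missed the limma threshold without NCI-H1650 replicate 2 (0.0886) or 3 (0.0539) or NCI-H1650Re replicate 1 (0.0557) or 2 (0.0958).

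Of 15 translation factors 2 rose: MTFMT, which formylates the initiator tRNA (2.68 ± 0.219 to 3.61 ± 0.208 FPKM, log2 change 0.33), and TACO1, a translational activator of cytochrome c oxidase subunit I (17.8 ± 0.508 to 21.5 ± 0.24, 0.26), with limma adjusted p = 0.0238 and 0.0167. Both missed it without NCI-H1650 replicate 2 (0.104 and 0.0885) or NCI-H1650Re replicate 2 (0.0746 and 0.0673), and MTFMT also without NCI-H1650 replicate 3 (0.0529) or NCI-H1650Re replicate 1 (0.0686). Of 15 genes for transcription and RNA processing in mitochondria only MTPAP, the mitochondrial poly(A) polymerase, rose (4.66 ± 0.178 to 6.14 ± 0.27 FPKM, log2 change 0.34, limma adjusted p = 0.0118; 0.0584 and 0.0588 without replicate 2 of either line). The mRNAs that the mitochondrial ribosome translates had a median log2 change of 0.00 over 10 genes. MT-ND1 alone passed, at 2799.88, 2896.15 and 3501.37 FPKM in NCI-H1650 and 3864.31, 3933.62 and 3675.73 in NCI-H1650Re (0.33, limma adjusted p = 0.039). Without NCI-H1650 replicate 1 or 2 or NCI-H1650Re replicate 1 or 2 its limma adjusted p was 0.087 to 0.144, and it was 0.0619 with no filter, 0.0537 with median-of-ratios scaling and 0.164 with quantile normalization.

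Of 9 transcriptional regulators of such genes, NRF1 rose from 4.18 ± 0.332 to 6.33 ± 0.527 FPKM (log2 change 0.50, limma adjusted p = 0.00544) and SP1 fell from 19.9 ± 0.261 to 16.7 ± 0.481 (-0.24, 0.0236; 0.0724 to 0.109 without NCI-H1650 replicate 1 or 2 or NCI-H1650Re replicate 2). GABPA (5.28 ± 0.556 and 4.61 ± 0.12 FPKM) and YY1 (25.4 ± 1.36 and 23.2 ± 0.085) did not pass. The median log2 change of members was 0.05 for the 7 with an NRF1 match and 0.13 for the 26 with an ETS match. It was 0.15 for the 22 with a YY1 match and 0.05 for the 18 with none of the 3. In the same order 1, 3, 4 and 1 of them rose, where 16.6% of all tested genes did. Windows can hold more than 1 motif, so these sets overlap, and their differences were not tested.

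Beside these lists, 79 cytosolic ribosomal protein genes gave 3 higher and 2 lower (6.33% past the threshold) with a median log2 change of 0.03, and 67 nuclear subunits of oxidative phosphorylation gave 3 higher and 11 lower (4.48% and 16.4%, against 16.6% and 13.9% of all tested genes) with a median of -0.10. Members with a bacterial ribosomal counterpart (41) had a median of 0.10 with 4 that rose, and those without (27, MRPS36 left out) had a median of 0.15 with 4 that rose. This last grouping was made after the values were seen.

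**Figure D5:**
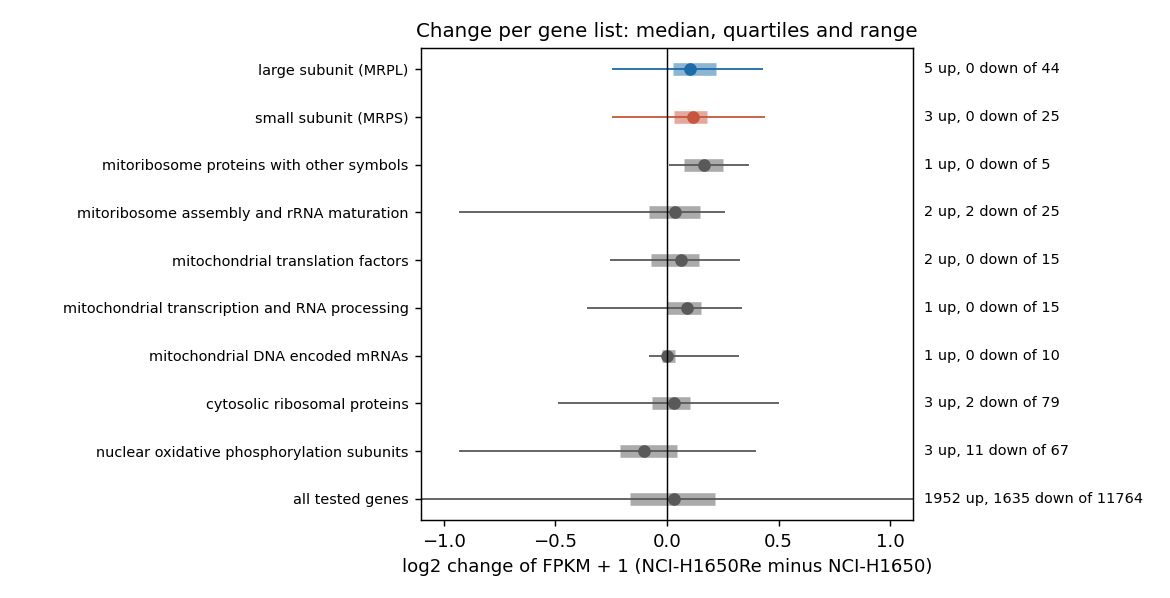
Log2 change of FPKM + 1 between the lines in 10 gene lists: points are medians, thick bars span the quartiles, thin lines the range (cut at 1.1 either way for all tested genes), and the text gives the genes past the limma threshold in each direction. Both subunits have medians and lower quartiles above 0, whereas the nuclear oxidative phosphorylation subunits have a median of -0.10.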

How the data were processed

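FPKM per gene and library was computed by the authors and deposited as 1 table of all genes. The authors also deposited a log2 fold change and an FDR, an adjusted p-value, per gene, and read counts for the 860 genes they marked, which served here only to estimate depth from 17 single-transcript genes. HISAT2, Bowtie2, RSEM and DESeq2 are named in the submitters' processing notes without versions. Those notes name the mouse build mm10 although the identifiers are human, and no source used here names a human build. The 11764 genes that averaged 1 FPKM or more in NCI-H1650 or NCI-H1650Re were tested as log2(FPKM + 1) in limma 3.58.1 (R 4.3.3) with the line as the only term, a variance trend and Benjamini-Hochberg adjustment at 0.05, all 6 libraries included. The pseudocount understates changes of low genes. The code was tested on simulated data with 50 genes changed at each of 4 sizes. It recovered 4% of log2 changes of 0.25, 54% of 0.5, 86% of 1 and 96% of 2, with 10 false calls. Small changes were thus mostly missed there, so a gene that did not pass here may still differ. Fewer genes changed in the simulation than passed here, so these shares do not carry over directly. Gene positions came from GENCODE release 29 (GRCh38) by Ensembl identifier, promoters from RefSeq (GRCh38.p14). Genes were given in full by rule: up to 8 largest rises and falls past the threshold, the 3 highest per subunit, the 3 lowest, MRPS18A and MRPS30, and per pathway list up to 3 past the threshold, with DAP3, PTCD3, AURKAIP1, CHCHD1 and GADD45GIP1. MRPS10, MRPS11, MRPL2, MRPL14, MRPL20, MRPL22, MRPL47, MRPS18B and MTG2 were added to these once their values were known. The members and lists were chosen with earlier results of these data known. The alternatives were pseudocounts of 0.1 and 0.01, no filter or 5 FPKM, 2 other scalings, no variance trend, a replicate block and libraries left out.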

Additional observations from a re-analysis of the deposited data

How the results depend on the processing

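The count of 8 members past the threshold was 5 with quantile normalization, 16 without both replicate 3 libraries and 2 to 17 with single libraries left out. In the large subunit the count of 5 was 3 with median-of-ratios scaling, 3 without a variance trend, 9 without both replicate 3 libraries and 2 to 11 with single libraries left out. In the small subunit the count of 3 was 1, 7 and 0 to 6 with quantile normalization, without both replicate 3 libraries and with single libraries left out. Over all genes 3587 passed, against 5080 without both replicate 3 libraries and 1785 to 4478 with single libraries left out. Only the fits with libraries left out have fewer samples, and without NCI-H1650Re replicate 3 the counts rose all the same. The cause of the differences was not tested. The other pseudocounts, filters and leaving out MRPS36 (chosen after seeing the data) gave 8 or 9 members. The ratio of the subunits' sums was 1.66 and 1.71 in the 2 lines (NCI-H1650 first), 1.94 and 1.96 with MRPS18A and MRPS30 moved to the large subunit, and 2.06 and 2.08 without the 3 most abundant genes of each subunit. The median log2 change was above 0 in both subunits under each alternative, from 0.07 to 0.15 in the large and from 0.09 to 0.15 in the small. Of the genes followed through the 16 fits, those past the threshold kept their sign, whereas MRPL3, MRPL50, MRPS11, MRPS18B and CHCHD1, which did not pass, had changes near 0 on both sides of it.

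The labels do not say whether the replicate numbers pair the samples. Deviations from the line mean correlated across lines at 0.173, -0.037 and 0.211 for numbers 1, 2 and 3. Of 6 libraries, 3 correlated best with their own number, and these values do not settle whether the numbers pair. With the replicate number as a block, 8 members passed (4 in each subunit) and 3522 genes in all. They were not the same 8: MRPL18 (limma adjusted p = 0.0513), MRPL48 (0.0509) and MRPL46 (0.0718) did not pass and MRPS10 (0.019), MRPL24 (0.0277) and MRPL9 (0.0476) did, and outside the set MTG2 did not (0.0684). Depth limits were not tested, as counts of these genes were not used here.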
